A study of Mus musculus with 23 samples.

Results

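The aldo-keto reductases examined here were *Akr1b3*, *Akr1b7* and *Akr1b8* of the Akr1b subfamily and *Akr1c12*, *Akr1c13*, *Akr1c14* and *Akr1c19* of the Akr1c subfamily. They were chosen by name, as the listed members that the array annotation gives a probe for. The rule itself uses no measured value, but the list was drawn up with earlier results of these data known. *Akr1b10* and *Akr1c18*, of the same subfamilies, were also tested and were not on it. The 7 genes had 9 probes, out of 56605 probes on the array and 17727 genes that passed the filter on dim signal. All 9 probes were well above background on all 23 arrays, and 0 of them was saturated. *Akr1b3* and *Akr1c14* had 2 probes each, and the brighter probe gave the value of the gene.

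The arrays held RNA from the ileum of male mice, 1 mouse per array. WT CONT (n = 6) and WT PCN (n = 5) were wild-type C57BL/6J mice, bought when 6 weeks old and kept for 2 further weeks before use. The study allocated 6 mice to each group, and WT PCN has arrays for 5 of them. *Pxr*-/- CONT (n = 6) and *Pxr*-/- PCN (n = 6) were mice lacking the pregnane X receptor (PXR, gene *Nr1i2*), backcrossed to C57BL/6J. They came from a colony kept in house for 10 years, so genotype and breeding origin cannot be told apart. They were also acclimatised for 2 weeks, and their age is not given. PCN, pregnenolone 16α-carbonitrile, is a steroid that activates the rodent receptor. It was given by injection into the abdomen at 100 mg/kg in corn oil on each of 4 days, all CONT mice received the oil alone, and all mice were killed 6 h after the last injection. The arrays were washed in 2 batches, with 3, 2, 3 and 3 arrays of the groups, in this order, in batch 1 and 3 from every group in batch 2.

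Aldo-keto reductases are soluble enzymes that use NADPH to reduce aldehydes and ketones to alcohols. The Akr1b enzymes include aldose reductase, encoded by *Akr1b3*, which turns glucose into sorbitol in the polyol pathway, and relatives that clear reactive lipid aldehydes. The Akr1c enzymes are hydroxysteroid dehydrogenases, which interconvert keto and hydroxy groups on steroids and prostaglandins. *Akr1b7*, first known from the vas deferens and the adrenal cortex, had been described as an intestinal target gene of PXR before these data. The comparisons asked whether PCN changed these genes in WT mice, whether it did so in mice without the receptor, and whether the genotypes differed.

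In the reference gene table the genes lie in 2 clusters. On chromosome 6 the protein-coding genes follow each other in the order *Akr1b3*, *Akr1b8*, *Akr1b10* and *Akr1b7*, and on chromosome 13 in the order *Akr1c14*, *Akr1c18*, *Akr1c13*, *Akr1c19* and *Akr1c12*. Promoter sequences from RefSeq (build GRCm38.p6) were at hand for 6 of the 7 members, without *Akr1b3*. The 4 printed here belong to the genes called in any comparison and to *Akr1c13*, whose promoter is nearly that of *Akr1c12*. Each line gives the 250 bases before the start site, read 5′ to 3′ in the direction of the gene, for *Akr1b7* (chr6:34412112-34412361, plus strand), *Akr1c14* (chr13:4059341-4059590, plus strand), *Akr1c19* (chr13:4233490-4233739, plus strand) and *Akr1c13* (chr13:4190937-4191186, plus strand). Capitals mark the hexamer AGGTCA or its variants with the letters AGTTCA or GGTTCA, on either strand, which are forms of the DNA element that nuclear receptors such as PXR bind in pairs.
*Akr1b7* promoter: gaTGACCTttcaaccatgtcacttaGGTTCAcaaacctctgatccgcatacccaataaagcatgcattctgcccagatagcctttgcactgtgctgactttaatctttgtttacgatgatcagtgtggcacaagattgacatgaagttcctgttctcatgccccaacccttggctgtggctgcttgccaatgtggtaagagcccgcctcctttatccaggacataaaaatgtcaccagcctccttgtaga
*Akr1c14* promoter: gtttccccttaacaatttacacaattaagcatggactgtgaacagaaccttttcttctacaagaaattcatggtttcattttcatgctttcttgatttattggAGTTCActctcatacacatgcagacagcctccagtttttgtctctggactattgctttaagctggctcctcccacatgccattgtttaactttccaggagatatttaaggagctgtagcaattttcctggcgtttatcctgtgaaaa
*Akr1c19* promoter: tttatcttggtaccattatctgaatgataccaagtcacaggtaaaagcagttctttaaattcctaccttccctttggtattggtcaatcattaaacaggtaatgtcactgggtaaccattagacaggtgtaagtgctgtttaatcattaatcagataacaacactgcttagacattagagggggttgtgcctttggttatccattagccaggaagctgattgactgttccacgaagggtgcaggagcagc
*Akr1c13* promoter: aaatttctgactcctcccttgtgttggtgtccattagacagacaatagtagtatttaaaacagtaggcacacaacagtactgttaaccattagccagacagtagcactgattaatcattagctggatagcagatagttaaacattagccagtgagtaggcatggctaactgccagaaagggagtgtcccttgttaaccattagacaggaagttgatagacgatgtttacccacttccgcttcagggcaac

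The *Akr1b7* promoter held AGGTCA on the minus strand at positions -248 to -243 from the start site, and GGTTCA on the plus strand at -225 to -220. *Akr1c14* held AGTTCA at -147 to -142. *Akr1b8* held AGTTCA on the minus strand and GGTTCA on the plus strand, and *Akr1c12*, *Akr1c13* and *Akr1c19* held none of the hexamers in this window. At least 1 of the 3 hexamers was present in 30.7% of the 32851 promoters of the same length, AGGTCA alone in 14.0%, AGTTCA in 11.8% and GGTTCA in 8.85%. Pairs of these hexamers as direct repeats spaced by 3 or 4 bases, or as everted repeats spaced by 6 or 8, were found in 0 of the 6 promoters. They were found in 0.0244%, 0.0396%, 0.00913% and 0.0152% of all promoters. The letters TGACNNNGC, the core of the element bound by NRF2, a regulator of detoxifying enzymes, were in 0 of the 6 and in 10.2% of all promoters. The promoters of *Akr1c12* and *Akr1c13* were identical at 235 of 254 aligned positions (92.5%), and those of *Akr1c19* and *Akr1c13* at 60.3%. The other pairs shared 47.7% to 59.0%.

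The probes of the Akr1c genes do not all separate one gene from the next. The annotation of the *Akr1c12* probe (chromosome 13, 4267675 to 4269464, mm9, minus strand) lists the transcripts of both *Akr1c12* and *Akr1c13*. Its annotated positions span 1790 bases, more than the 60 bases of its sequence, and whether a probe lies in a coding or an untranslated stretch was not worked out. The *Akr1c13* probe (chromosome 13, 4204668 to 4204727, plus strand) lists *Akr1c13* transcripts. The *Akr1c12* probe and the dimmer *Akr1c14* probe (chromosome 13, 4086493 to 4086552, plus strand) are the pair with the most bases in common and are shown to let the likeness of the family be seen. Capitals mark the 35 bases that match over the 47 they share (74.5%).
*Akr1c12* probe: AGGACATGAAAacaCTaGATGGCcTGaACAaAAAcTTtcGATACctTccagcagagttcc
*Akr1c14* probe, the dimmer: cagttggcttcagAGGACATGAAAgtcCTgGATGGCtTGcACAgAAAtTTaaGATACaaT

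The next highest number of matching bases between any other pair of the 9 probes was 24. The remaining probes lie on chromosome 6 at 34372905 to 34372964 (*Akr1b7*, plus strand), 34318338 to 34318397 (*Akr1b8*, plus strand), 34253930 to 34253982 and 34260573 to 34260632 (*Akr1b3*, minus strand). On chromosome 13 they lie at 4089196 to 4089255 (*Akr1c14*, the brighter probe) and 4247501 to 4247560 (*Akr1c19*), on the plus strand. Both *Akr1b3* probes also list a transcript of the pseudogene *Gm6644*. How much signal each probe took from related transcripts was not tested.

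The median spot signal was 74 to 106.5 on the linear scale, over a median local background of 19 to 28.5, and 60.9% to 67.3% of probes per array were well above background. The probe of the deleted gene, *Nr1i2*, did not separate the genotypes, with a log2 signal of 11.82 to 12.37 in WT CONT and 11.42 to 12.27 in *Pxr*-/- CONT (difference -0.41, SE 0.146, adjusted p 0.336 by limma), so it does not check the labels. Beside the members, 7 reference PXR target genes were listed, among them *Cyp2b10*, *Cyp3a11*, *Cyp2c55*, *Ces2a* and *Gstm3*. All 7 were called higher with PCN in WT (by 1.48 to 4.61), against 0.931% of all genes. All 7 were called lower in *Pxr*-/- PCN than in WT PCN, against 0.468%. Without PCN all 7 were already lower in *Pxr*-/- mice (median -1.38, 4 called). The difference of PCN effects was called lower for 4, against 0.113%. The list was drawn up with earlier results of these data known, so these counts describe it and do not test the labels. Ileal marker genes (*Fabp6*, *Slc10a2*, *Slc51a*, *Slc51b* and *Fgf15*) were above background on all arrays for 5 of 5.

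**Figure D1:**
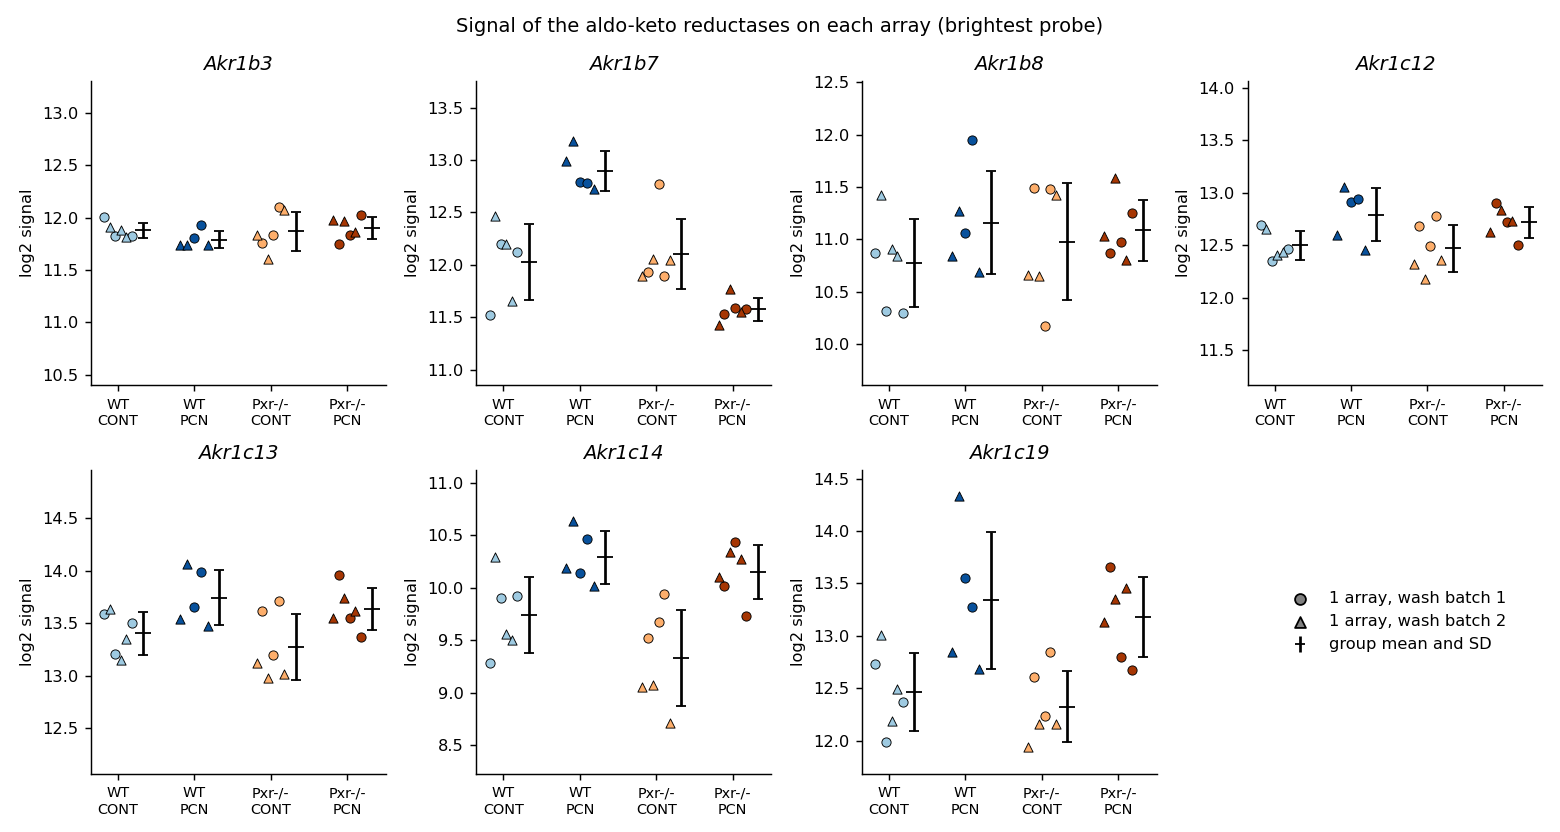
Log2 signal of the brightest probe of each of the 7 aldo-keto reductases on each of the 23 arrays, by group. Circles are arrays of wash batch 1, triangles arrays of wash batch 2, and bars the group mean and SD, with all panels spanning the same range of log2 units. The *Akr1b7* values of WT PCN lie above all of WT CONT and those of *Pxr*-/- PCN below all of *Pxr*-/- CONT.

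PCN raised *Akr1b7* in WT mice, by 0.86 on the log2 scale or 1.82-fold. Its change in *Pxr*-/- mice was of opposite sign and was not called. *Akr1b7* encodes a reductase of lipid aldehydes. Its log2 signal in WT CONT had a lowest value of 11.52, a median of 12.16 and a highest of 12.47. The WT PCN arrays read 12.99, 13.18, 12.79, 12.78 and 12.72 in the order of their replicate numbers. All 5 WT PCN arrays lay above all 6 WT CONT arrays. The values ran in *Pxr*-/- CONT from 11.89 through a median of 11.99 to 12.77, and in *Pxr*-/- PCN from 11.42 through 11.57 to 11.77. All 6 *Pxr*-/- PCN arrays lay below all 6 *Pxr*-/- CONT arrays. The order of the group means was WT PCN (12.89 ± 0.19, SD, n = 5), *Pxr*-/- CONT (12.10 ± 0.34, n = 6), WT CONT (12.03 ± 0.36, n = 6) and *Pxr*-/- PCN (11.57 ± 0.11, n = 6), and the CONT groups did not differ beyond their spread.

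By limma, with p-values adjusted over all 37591 probes tested, the PCN effect on *Akr1b7* in WT had an SE of 0.160, a 95% interval of 0.53 to 1.19 and an adjusted p of 0.00489. To be called, a gene needed both a fold above 1.5 and an adjusted p no higher than 0.05. *Akr1b7* was the 1 of 7 members called higher in this comparison, against 0.931% of all genes tested, and 1.88% of all genes had every WT PCN array above every WT CONT array. The change in *Pxr*-/- mice was -0.53 (SE 0.152, interval -0.84 to -0.21, adjusted p 0.0549), which missed both the fold and the adjusted p threshold and was not called. Of all genes, 0.276% were called lower there and 1.27% had every PCN array below every CONT array. The difference between the PCN effects, *Pxr*-/- minus WT, was -1.39 (SE 0.221, interval -1.84 to -0.93, adjusted p 0.00713). *Akr1b7* was the 1 member called in this test, where 0.113% of all genes were called in the same direction.

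The effect of PCN on *Akr1b7* was of similar size in both wash batches. In WT it was 0.83 within batch 1 and 0.86 within batch 2, and in *Pxr*-/- mice it was -0.63 and -0.42. The difference of effects was -1.47 and -1.28. Without PCN the genotypes differed by 0.07 in *Akr1b7* (SE 0.152, interval -0.24 to 0.39, adjusted p 0.956), and by 0.25 within batch 1 and -0.11 within batch 2. The sign of this small value was negative with a fixed slide term (-0.00957) and without *Pxr*-/- CONT replicate 4 (-0.0723). With PCN, *Pxr*-/- minus WT was -1.32 (2.49-fold lower, SE 0.160, adjusted p 3.38e-05), and 6 of 6 lay below all WT PCN arrays. *Akr1b7* was the 1 of 7 members called in that comparison, where 0.468% of genes were called lower and 0.891% had groups that did not overlap in that direction.

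The WT call of *Akr1b7* did not depend on any 1 array, since all 23 fits that omitted an array kept it (0.76 to 0.96, highest adjusted p 0.0232). With the slide as a fixed block the difference of effects was -1.23 with an adjusted p of 0.159, so the call did not hold there. *Pxr*-/- CONT replicate 4 read 12.77 against 11.89 to 12.06 for the others of its group, and without it the effect in *Pxr*-/- mice was -0.38 (adjusted p 0.0937) and the difference -1.24 (adjusted p 0.00491). Markers of other cell types moved beside these results. The mean log2 level of 7 B cell markers was 7.59 to 10.17 in WT PCN and 7.15 to 7.48 in WT CONT, with the highest value in WT PCN replicate 3. With this mean as a covariate, a setting chosen after seeing the data, the *Akr1b7* change in WT was 0.82 (adjusted p 0.0516), and without WT PCN replicate 3 it was 0.89 (adjusted p 0.0103). Of 5 adrenal cortex markers, 2 were above background on all arrays and 2, *Cyp11b1* and *Cyp11b2*, on none. The 3 that were tested, *Cyp11a1*, *Star* and *Mc2r*, were dim, and 0 were called in any comparison. In tissue RNA, fewer cells of a type and less RNA per cell cannot be told apart.

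**Figure D2:**
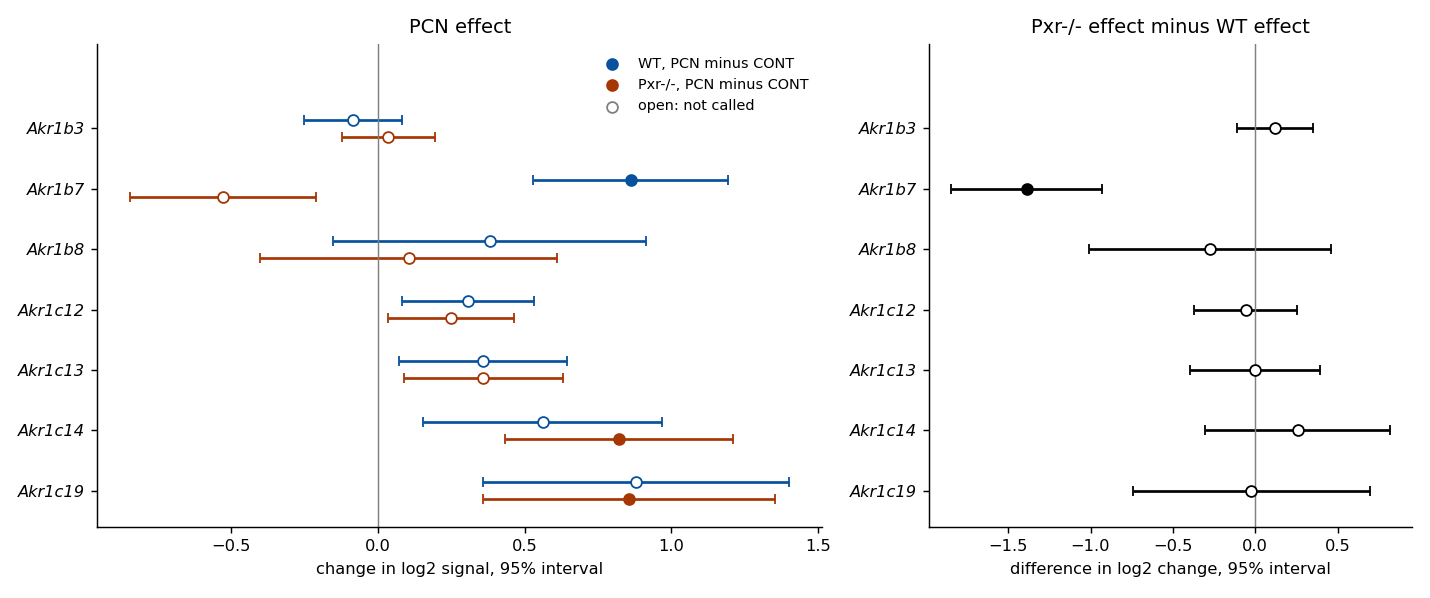
Change in log2 signal with PCN for each member in WT (blue) and *Pxr*-/- mice (brown), and the *Pxr*-/- effect minus the WT effect at right, with 95% intervals. Filled points are called and open points are not. *Akr1b7* has effects of opposite sign (0.86 and -0.53), while the points of *Akr1c19* nearly coincide (0.88 and 0.85).

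The remaining Akr1b genes were not called in any of the 5 comparisons. *Akr1b3*, aldose reductase, differed little between arrays, with 11.82 to 12.01 in WT CONT and 11.74 to 11.93 in WT PCN. Its values in *Pxr*-/- CONT were 11.61 to 12.10 and in *Pxr*-/- PCN 11.75 to 12.03, so that all groups overlapped. PCN changed it by -0.08 in WT (interval -0.25 to 0.08, adjusted p 0.751) and by 0.04 in *Pxr*-/- mice (interval -0.12 to 0.19, adjusted p 0.840), a value of opposite sign, -0.03, under median centring. The dimmer probe of *Akr1b3* gave -0.09 and -0.05. These intervals exclude a change of 1.5-fold in either direction for the brighter probe.

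*Akr1b8*, a relative that also reduces lipid aldehydes, varied more between mice than between groups. It ran from 10.30 to 11.42 in WT CONT, and the WT PCN arrays read 10.84, 11.27, 11.06, 11.94 and 10.68. It ran in *Pxr*-/- CONT from 10.18 to 11.49 and in *Pxr*-/- PCN from 10.80 to 11.59. The groups overlapped over most of their range. PCN changed it by 0.38 in WT (SE 0.256, interval -0.15 to 0.91, adjusted p 0.616) and by 0.11 in *Pxr*-/- mice (interval -0.40 to 0.61, adjusted p 0.855). The WT value was 1.01 within batch 1, which holds 2 WT PCN arrays, and -0.13 within batch 2. The interval leaves room for a change of over 1.5-fold in WT. WT PCN replicate 4 was the highest of its group, and without it the WT value was 0.15 (adjusted p 0.873). With the fibroblast marker mean as a covariate it was 0.0718 (adjusted p 0.927). The difference of effects, -0.28 (interval -1.01 to 0.46), ran from -0.45 to -0.05 with 1 array left out, the lowest without *Pxr*-/- CONT replicate 4 and the highest without WT PCN replicate 4.

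Among the Akr1c genes, *Akr1c19* and *Akr1c14* rose with PCN in *Pxr*-/- mice, and their effects in the genotypes were not shown to differ. *Akr1c19* ran from 11.99 through a median of 12.43 to 13.01 in WT CONT. The WT PCN arrays read 12.84, 14.33, 13.55, 13.28 and 12.68. Values in *Pxr*-/- CONT were 11.94, 12.20 and 12.85 (lowest, median and highest) and in *Pxr*-/- PCN 12.68, 13.24 and 13.66. In each genotype every PCN array lay above the CONT mean, while the ranges of PCN and CONT overlapped, with 3 of 5 and 4 of 6 PCN arrays above all CONT arrays. WT PCN replicate 2 was the highest of the 23 arrays.

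The PCN effect on *Akr1c19* was 0.88 in WT (1.84-fold, SE 0.252, interval 0.36 to 1.40), with an adjusted p of 0.0978, and was not called. It fell to 0.50 (adjusted p 0.571) with the B cell marker mean as a covariate, and was 0.63 (adjusted p 0.285) without WT PCN replicate 2. The effect in *Pxr*-/- mice was 0.85 (1.81-fold, SE 0.239, interval 0.36 to 1.35), with an adjusted p of 0.0488, and was called. The difference was -0.02 (SE 0.347, interval -0.74 to 0.70, adjusted p 0.999), so a PCN effect that is 1.5-fold larger in either genotype is within the interval. The call lies at the threshold. It was lost under 6 of 15 alternatives (adjusted p up to 0.162) and in 15 of 23 fits with 1 array left out (change 0.76 to 0.96, adjusted p 0.0209 to 0.118). The arrays whose removal ended it were WT CONT replicates 1, 4, 5 and 6, WT PCN replicates 3 and 4, *Pxr*-/- CONT replicates 1, 2, 3, 4 and 6, and *Pxr*-/- PCN replicates 1, 2, 3 and 5. Within batches the *Pxr*-/- effect was 0.48 and 1.23, and the WT effect 1.05 and 0.72.

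*Akr1c14* encodes a 3α-hydroxysteroid dehydrogenase, which acts on reduced androgens and progestins. Its brighter probe read 9.28, 9.73 and 10.30 in WT CONT (lowest, median and highest) and 10.18, 10.64, 10.14, 10.47 and 10.02 in WT PCN. Without the receptor it read 8.71, 9.30 and 9.94 in *Pxr*-/- CONT, and in *Pxr*-/- PCN 9.73, 10.19 and 10.44. Of the *Pxr*-/- PCN arrays 5 of 6 lay above all of their CONT arrays, and in WT 2 of 5 did. The change was 0.82 in *Pxr*-/- mice (1.77-fold, SE 0.187, interval 0.43 to 1.21, adjusted p 0.0181, called) and 0.56 in WT (1.48-fold, SE 0.196, interval 0.16 to 0.97, adjusted p 0.203, not called). The difference of 0.26 had an interval of -0.30 to 0.82 (adjusted p 0.999). It was 0.48 with a fixed slide term and 0.12 without WT CONT replicate 2.

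The dimmer *Akr1c14* probe moved the same way, by 0.55 in *Pxr*-/- mice (adjusted p 0.0356, fold under the threshold) and by 0.42 in WT. The call of the brighter probe held in all 23 fits that omitted an array (highest adjusted p 0.0477). Within batch 1 the *Pxr*-/- effect was 0.35 and within batch 2 it was 1.29, while the WT effects were 0.61 and 0.50. Without PCN, *Akr1c14* was the member that differed most between the genotypes, by -0.41 (interval -0.80 to -0.03, unadjusted p 0.0377, adjusted p 0.518). That difference was 0.01 within batch 1 and -0.84 within batch 2. Of the members, 0 of 7 were called between the genotypes without PCN, where 0.214% of all genes were called in either direction. The other values were 0.20 for *Akr1b8* (interval -0.30 to 0.71), -0.14 for *Akr1c19* (-0.63 to 0.36), -0.13 for *Akr1c13* (-0.40 to 0.14), -0.03 for *Akr1c12* (-0.24 to 0.18) and -0.01 for *Akr1b3* (-0.17 to 0.15), and those of *Akr1b3*, *Akr1b7* and *Akr1c12* changed sign under some settings. With PCN the genotype values were 0.11 for *Akr1b3*, -0.07 for *Akr1b8*, -0.16 for *Akr1c19*, -0.15 for *Akr1c14*, -0.13 for *Akr1c13* and -0.09 for *Akr1c12*, with adjusted p of 0.937 to 1. None of these was called, and those of *Akr1b8* and *Akr1c19* changed sign under some settings.

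*Akr1c13* and *Akr1c12*, 2 closely related reductases with overlapping probe annotation, changed by smaller amounts and were not called. *Akr1c13* ran from 13.15 to 13.63 in WT CONT, and the WT PCN arrays read 13.54, 14.07, 13.66, 13.98 and 13.48. It ran from 12.97 to 13.71 in *Pxr*-/- CONT and from 13.37 to 13.96 in *Pxr*-/- PCN. The PCN effect was 0.36 in WT (interval 0.07 to 0.64, adjusted p 0.269) and 0.36 in *Pxr*-/- mice (interval 0.09 to 0.63, adjusted p 0.127). All 11 PCN arrays, 5 of 5 and 6 of 6, were above the CONT mean of their genotype. The difference between the effects was within -0.39 to 0.39 and had no stable sign over the scaling alternatives.

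*Akr1c12* ran from 12.35 to 12.69 in WT CONT, and the WT PCN arrays read 12.60, 13.05, 12.91, 12.94 and 12.45. Its range was 12.18 to 12.78 in *Pxr*-/- CONT and 12.50 to 12.90 in *Pxr*-/- PCN. PCN changed it by 0.31 in WT (interval 0.08 to 0.53, adjusted p 0.216; 0.19 with the B cell covariate) and by 0.25 in *Pxr*-/- mice (interval 0.03 to 0.46, adjusted p 0.183). Within batches the *Pxr*-/- effects were 0.06 and 0.44 for *Akr1c12* and 0.12 and 0.60 for *Akr1c13*. For all 4 Akr1c genes the effect in *Pxr*-/- mice was larger within batch 2 than within batch 1, a difference that was not tested.

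**Figure D3:**
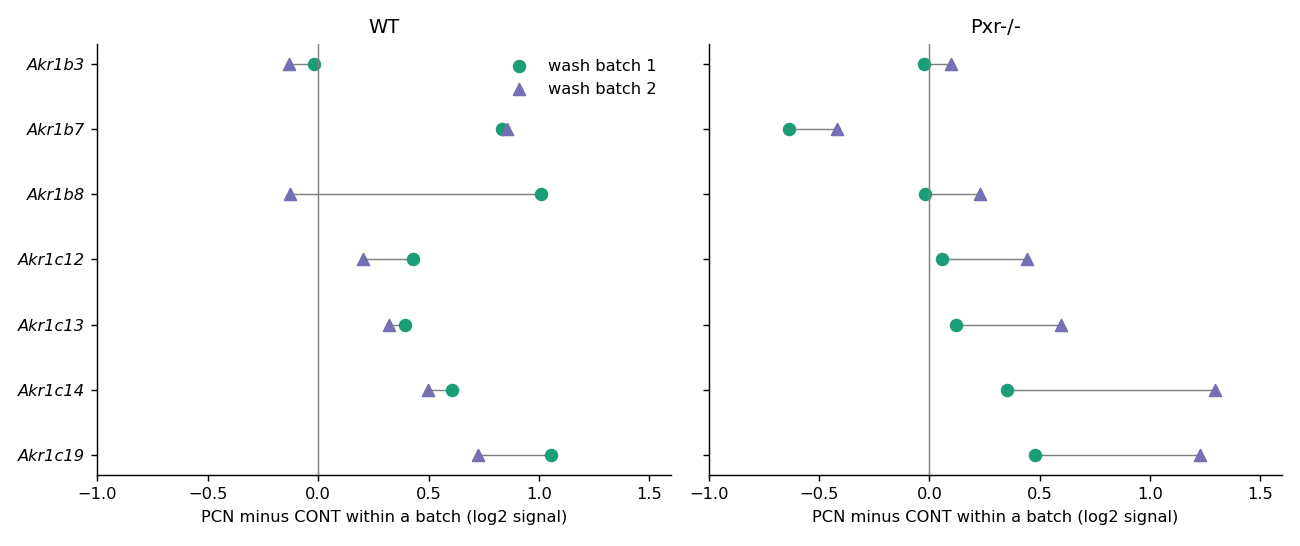
PCN effect on the log2 signal of each member within wash batch 1 (circles) and wash batch 2 (triangles), for WT at left and *Pxr*-/- mice at right. Each point is a difference of means over 2 or 3 arrays per group and carries no error bar. *Akr1c14* in *Pxr*-/- mice lies at 0.35 and 1.29, and *Akr1b8* in WT at 1.01 and -0.13.

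Over the 7 members, 1 was called higher for PCN in WT (*Akr1b7*) and 2 in *Pxr*-/- mice (*Akr1c14* and *Akr1c19*, against 1.2% of all genes). At an unadjusted p of at most 0.05, 5 of 7 passed in WT, all higher (*Akr1b7* and the 4 Akr1c genes), against 14.9% of all genes. Likewise 5 of 7 passed in *Pxr*-/- mice, the 4 Akr1c genes higher and *Akr1b7* lower, against 23.2%. For the difference of PCN effects 1 of 7 passed (*Akr1b7*, 5.06% of all genes), without PCN 1 (*Akr1c14*, 10.3%) and with PCN 1 (*Akr1b7*, 8.51%). The median change over the members was 0.38 in WT, the value of *Akr1b8*, against -0.02 over all genes, and 0.25 in *Pxr*-/- mice, against 0.000451. Since the Akr1c genes were read in the same mice and varied together from mouse to mouse, these counts are not independent of each other. The members were also listed with earlier results of these data known, so the counts describe the list and do not test it. In the order of all 17727 genes from the highest change to the lowest, *Akr1b7* stood at 143 for PCN in WT and at 17554 in *Pxr*-/- mice, while *Akr1c19* stood at 138 and 125 and *Akr1c14* at 338 and 139.

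**Figure D4:**
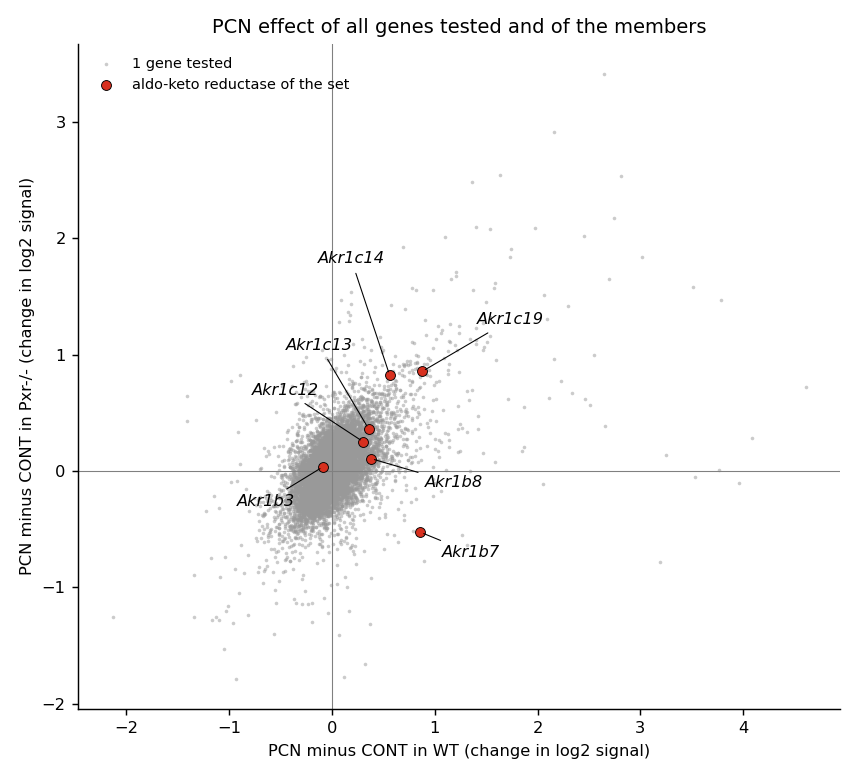
Change in log2 signal with PCN in WT (x axis) and in *Pxr*-/- mice (y axis), with 1 grey point for each of the 17727 genes tested and the 7 aldo-keto reductases in red. *Akr1b7* lies in the quadrant of a rise in WT and a lower signal in *Pxr*-/- mice, and *Akr1c14* and *Akr1c19* in that of higher signal in both.

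The members also differed in how they varied from mouse to mouse once group and wash batch were taken out. Over the 23 arrays the residual log2 signals of *Akr1c12* and *Akr1c19* had a Pearson r of 0.915 (Spearman rho 0.919), those of *Akr1c12* and *Akr1c13* 0.907 (rho 0.881), and those of *Akr1c13* and *Akr1c19* 0.866 (rho 0.845). Without the 2 arrays farthest from the median of the gene named first, r was 0.894, 0.873 and 0.821. *Akr1c14* (r 0.473 to 0.578) and *Akr1b8* (r 0.417 to 0.577) followed these genes less closely. *Akr1b3* had r of 0.068 to 0.25 with them and 0.579 with *Akr1b8*. *Akr1b7* had r of -0.021 to 0.084 with *Akr1c12*, *Akr1c13* and *Akr1c19*, and 0.541 with *Akr1c14*. These 21 correlations are descriptions over arrays that share labelling and washing, and the *Akr1c12* and *Akr1c13* probes may bind the same transcripts.

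Of all other genes tested, those whose signal over the 23 arrays was most like that of *Akr1b7* by Pearson r were *Exoc3l4* (r 0.890, rho 0.853), *Plb1* (0.852, rho 0.809), *Agfg2* (0.839, rho 0.818), *Abcg5* (0.832, rho 0.737) and *Cyp3a11* (0.820, rho 0.696). *Plb1* is a phospholipase of the brush border, *Abcg5* a sterol transporter and *Cyp3a11* a drug-metabolizing cytochrome P450. Likeness was measured over arrays that include the PCN groups. For PCN in WT, *Cyp3a11* changed by 3.53 (adjusted p 1.21e-06) and *Plb1* by 1.32 (adjusted p 0.0234), and both were called. *Abcg5*, with 0.53 (adjusted p 0.0176), was under the fold threshold. *Exoc3l4* (0.39, adjusted p 0.157) and *Agfg2* (0.30, adjusted p 0.0899) did not pass the test. In *Pxr*-/- mice the values were -0.05 for *Cyp3a11*, -0.64 for *Plb1*, -0.06 for *Abcg5*, -0.14 for *Exoc3l4* and -0.08 for *Agfg2*, with adjusted p of 0.212 to 0.947. The difference of effects was called for *Cyp3a11* (-3.58, adjusted p 0.000875) and not for *Plb1* (-1.95, adjusted p 0.0832), *Abcg5* (-0.59, adjusted p 0.388), *Exoc3l4* (-0.53, adjusted p 0.72) or *Agfg2* (-0.39, adjusted p 0.657).

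Genes of the same chemistry were read from lists beside the members. Of 10 other aldo-keto reductases, 6 were tested (*Akr1a1*, *Akr1b10*, *Akr1c18*, *Akr1cl*, *Akr1e1* and *Akr7a5*) and 0 were called in any comparison, with changes of -0.09 to 0.17 for PCN in WT and -0.04 to 0.21 in *Pxr*-/- mice. At an unadjusted p of at most 0.05, 0 of the 6 passed in WT and 2 in *Pxr*-/- mice. *Akr1c6*, *Akr1c20*, *Akr1c21* and *Akr1d1* were not well above background on enough arrays, with at most 2 arrays for *Akr1c6* and 0 for the others. Of 20 tested carbonyl reductases, aldehyde dehydrogenases and alcohol dehydrogenases, 0 were called. At an unadjusted p of at most 0.05, 6 of 20 passed in WT and 7 of 20 in *Pxr*-/- mice, against the 14.9% and 23.2% of all genes given above for either direction.

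In the polyol and fructose list, *Sord*, the dehydrogenase that follows aldose reductase in the polyol pathway, changed by -0.09 in WT and 0.36 in *Pxr*-/- mice (adjusted p 0.906 and 0.222). *Slc2a5*, the fructose transporter, rose by 0.95 in *Pxr*-/- mice (adjusted p 0.015, 6 of 6 arrays above all CONT arrays) and was the 1 of 4 called. Its change in WT was 0.38 (adjusted p 0.535), and the difference was not past the threshold (0.58, adjusted p 0.999). Of 16 genes of steroid and prostaglandin metabolism, 0 were called for PCN in either genotype. With PCN, *Hsd17b2*, which inactivates estradiol and testosterone, was lower in *Pxr*-/- than in WT mice (difference -0.69, adjusted p 0.0397) and *Ptgr1*, a prostaglandin reductase, was higher (0.60, adjusted p 0.0208). Without PCN neither was called. There the *Hsd17b2* mean was already lower, at 11.32 in *Pxr*-/- CONT against 11.82 in WT CONT. The *Ptgr1* means were 10.56 and 10.49.

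NRF2 controls several reductases in other settings, so 11 of its target genes were listed. *Hmox1*, heme oxygenase, was the 1 called, with a rise of 1.26 in *Pxr*-/- mice (adjusted p 0.0155) and a value of 1.15 in WT (adjusted p 0.0544). *Nqo1* changed by 0.03 and -0.20 (adjusted p 0.962 and 0.33), and in each genotype 7 of the 11 changes were above 0. At an unadjusted p of at most 0.05 by limma, 3 of 11 passed in WT, all higher. In *Pxr*-/- mice 4 passed higher and 1 lower, against the 14.9% and 23.2% of all genes for either direction. The median of the 11 was 0.04 in WT and 0.14 in *Pxr*-/- mice. Among the 7 reference PXR targets, *Abcb1a* and *Abcb1b*, drug efflux pumps, were the 2 called higher in *Pxr*-/- mice (1.07 and 0.95, adjusted p 0.00138 and 0.00331). Of all genes, 1.2% were called higher there. The 7 changes ran from -0.12 to 1.58 with a median of 0.72, and 2 were below 0. At the same unadjusted p, 5 of the 7 passed, all higher. The mean of *Cyp2c55*, not called, was 6.88 in *Pxr*-/- CONT and 8.46 in *Pxr*-/- PCN.

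Stromal and myeloid markers moved in the comparison in which *Akr1c14* and *Akr1c19* were called. For PCN in *Pxr*-/- mice 3 of 6 fibroblast, 3 of 8 smooth muscle and 3 of 5 neutrophil markers were called higher, against 1.2% of all genes. They were the collagen genes *Col1a1* (1.04) and *Col3a1* (0.81) and the proteoglycan gene *Lum* (0.82), the contractile genes *Tagln* (0.59), *Cnn1* (0.67) and *Actg2* (0.67), and *S100a9* (2.91), *S100a8* (2.54) and *Retnlg* (1.39), with adjusted p of at most 0.0256. The mean log2 level of the 6 fibroblast markers was 12.58 to 13.32 in *Pxr*-/- PCN and 11.83 to 12.59 in *Pxr*-/- CONT. With this mean as a covariate, a setting chosen after seeing the data, the change was 0.83 for *Akr1c14* (adjusted p 0.136) and 0.98 for *Akr1c19* (adjusted p 0.162), as large as without it and not called. That of *Akr1b7* in *Pxr*-/- mice was -0.34 (adjusted p 0.427). The epithelial markers, 8 of 8 above background on all arrays, had a mean log2 level of 16.31 to 16.38 in *Pxr*-/- PCN and 16.37 to 16.62 in *Pxr*-/- CONT, and 0 of 8 were called. With PCN 7 of 8 changes were below 0 in *Pxr*-/- mice (median -0.10) and likewise in WT (median -0.14). At an unadjusted p of at most 0.05 by limma, 2 of 8 passed in *Pxr*-/- mice and 1 of 8 in WT, all lower. Of all genes, 23.2% and 14.9% passed in either direction.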

How the data were processed

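Cy3-labelled cRNA made from 150 ng of total RNA was hybridised by the authors to single-colour Agilent mouse arrays, 1 per mouse, and read with Feature Extraction 10.10.1.1. Per the file headers the scanner values are intensity, linear spot brightness. The deposited value table holds log2 values of 37161 probes, to which, per the study's methods, the authors applied a signal filter, a wash batch correction and CrossNorm. It holds all 9 member probes and served as an alternative.

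The values reported are log2 median signals. Control and outlier spots were removed, spots averaged per probe, and arrays quantile normalized. Of 56605 probes, 37591 were tested, the filter asking for signal well above background on 50% or more of the arrays in any of the groups. They covered 17727 genes, each read from its brightest tested probe. limma 3.58.1 (R 4.3.3, data.table, version 1.17.8) fitted the 4 groups and wash batch to 23 arrays, with 5 contrasts and Benjamini-Hochberg adjustment over the 37591 probes. Tests were 2-sided and intervals are 95%. The median SE was 0.0974 to 0.141, limited by the number of arrays.

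Members and gene lists were chosen with earlier results of these data known. The rule names all 7 members in every contrast and, of each list, up to 5 genes called in any contrast. Genes like *Akr1b7* were the 5 with the highest r. Cell type lists were intestinal epithelium, ileum, proximal small intestine, colon, adrenal cortex, liver, pancreatic acinar, B cells, smooth muscle, fibroblasts, macrophages, neutrophils and mesothelium. On simulated data for PCN in WT (37557 probes), 96% of probes planted with a log2 change of 1 and 99% of those with 2 were called, with 6 false calls. The simulated noise was independent for each probe, without wash batch or variation shared between genes. The PCN effects of the members were under 1, and changes of that size were not planted. Promoters were taken from RefSeq. There were 15 alternatives besides leaving out each of 23 arrays.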

Additional observations from a re-analysis of the deposited data

Results flagged for a closer look

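*Akr1b7* read 12.77 in *Pxr*-/- CONT replicate 4, against 11.89 to 12.06 in the other 5 mice, a gap of 0.807 of the whole range of the group. The dimmer *Akr1c14* probe read 7.25 in *Pxr*-/- PCN replicate 6, against 7.58 to 7.74 in the others, a gap of 0.672 of the range. These were 2 of 36 groups of arrays examined, and chance marks about 1 in 20.

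The PCN effect on *Akr1b7* differed between *Pxr*-/- and WT mice by -1.39 in a test of the difference itself (limma, adjusted p 0.00713). It was -1.24 (adjusted p 0.00491) without *Pxr*-/- CONT replicate 4, and -1.23 (adjusted p 0.159, not called) with slide as a fixed block.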

How the results depend on the processing

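Depth is limited by the number of arrays, and genotype with breeding origin cannot be told apart. The count of members called for PCN in WT (1) fell to 0 with the B cell marker mean as a covariate, a setting chosen after seeing the data. The count in *Pxr*-/- mice (2) was 1 with processed signals scaled to the 75th percentile, with no filter on dim probes, with slide as a fixed block and with the B cell covariate, 0 with the fibroblast covariate, also added after seeing the data, and 1 to 2 with 1 array left out. With median centring the count in *Pxr*-/- mice stayed at 2, but *Akr1b7* was called lower and *Akr1c19* was not called. The count for the difference of effects (1) was 0 with slide as a fixed block. The counts between genotypes kept their values of 0 and 1 under all alternatives run. The cause was not tested.

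Values near 0 changed sign. For PCN in *Pxr*-/- mice *Akr1b3* was -0.0326 with median centring, -0.00682 as the mean of its probes and -0.106 with the fibroblast covariate, which also gave -0.46 for *Akr1b8*. With 1 array left out they were -0.0159 to 0.0817 and -0.0618 to 0.22. The difference of effects for *Akr1c12* was 0.0086 with slide as a fixed block and 0.0229 with the B cell covariate (-0.13 to 0.0211 with 1 array left out). That for *Akr1c13* was -0.0789 with processed signals, -0.0315 with normexp, -0.0242 with median centring and -0.0291 with the fibroblast covariate (-0.0691 to 0.10). That for *Akr1c19* was 0.12 with slide as a fixed block, 0.24 with the B cell and 0.0347 with the fibroblast covariate (-0.18 to 0.23). Between genotypes without PCN *Akr1b3* was 0.00014 with processed signals and 0.0438 with slide as a fixed block (-0.0564 to 0.0412), *Akr1b7* -0.00957 with slide as a fixed block (-0.0723 to 0.16) and *Akr1c12* -0.081 to 0.0169. With PCN *Akr1c19* was 0.0911 with the B cell covariate (-0.32 to 0.0898) and *Akr1b8* -0.19 to 0.16. The *Pxr*-/- effect on *Akr1b7* was called with median centring (-0.60, adjusted p 0.0489 by limma, range over the alternatives 0.0411 to 0.427).

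With the replicate block, the replicate number as a term, *Akr1b7* changed by 0.86 in WT (adjusted p 0.00519) and by -0.53 in *Pxr*-/- mice (adjusted p 0.0481, fold under 1.5), the difference was -1.38 (adjusted p 0.0067), and no count of calls moved. The difference for *Akr1c19* became 0.0251. Same-numbered mice did not pair, with a correlation of -0.242 to 0.351, and over the 4 comparisons 2 of 5, 1 of 6, 2 of 6 and 0 of 5 pairs correlated best with their own number.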

Other observations

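Several lists of other cell types stood apart from the members. Of 5 liver markers, 0 were called in any comparison and all 5 were lower in *Pxr*-/- than in WT mice without PCN (median -0.52) and with PCN (median -0.29). Of 6 pancreatic acinar markers, 2 were tested, 0 were called, and 3 were above background on no array. For PCN in *Pxr*-/- mice, 1 of 7 macrophage markers (*Cd68*, 0.60) and 1 of 5 mesothelial markers (*Msln*, 0.74) were called higher, against 1.2% of all genes. In WT 2 of 5 neutrophil markers (*S100a9*, 2.16, and *S100a8*, 1.64), 1 of 6 fibroblast markers (*Lum*, 0.70) and 1 of 5 mesothelial markers (*Msln*, 0.99) were called higher. The share of all genes there was 0.931%. Of the colon and proximal small intestine markers, 0 of 3 and 0 of 5 tested were called in any comparison. The summed linear signal of the 4 colon markers in *Pxr*-/- PCN ran from 355 to 16000, with a median of 499. It ran from 349 to 3020 in *Pxr*-/- CONT (median 524), 418 to 515 in WT CONT and 387 to 536 in WT PCN. The highest log2 signal of the colon marker *Car1* was 13.84 in *Pxr*-/- PCN (median 6.43) and 11.38 in *Pxr*-/- CONT (median 6.31 [6.305]).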
